A study of Mus musculus with 20 samples.

Results

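Male and female rodents secrete growth hormone in different rhythms, in separated pulses in males and almost continuously in females. In male liver each pulse activates the transcription factor STAT5B, and in rats and mice the pulses hold down a set of liver genes that are active in females, in mice partly through the repressor BCL6. The genes described here belong to this set and encode enzymes and carriers of steroids, sulfate conjugates and foreign compounds. They were named by symbol as Cyp17a1, Cyp2b9, Cyp2b13, Cyp3a44, Cyp3a41a, Sult1e1, Sult3a1, Slco1a4 and Fmo2, 9 genes in all. The genes were selected on their measured signal in STZ-diabetic against untreated mice of these same arrays, so that difference is given here as a description with no test. Of the 9, 8 had probe sets annotated to them alone (12 probe sets), out of 18193 genes with such a probe set, and for each gene the brightest probe set over 20 arrays was used. All 8 were among the 12952 genes that passed the filter on low values. The single probe set of Cyp3a41a is also annotated to Cyp3a41b, so it was left out of the counts and is described separately.

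Liver RNA came from male BALB/c mice that were 6 weeks old on arrival, with 1 array per mouse and 5 arrays in each of 4 groups. STZ mice had received 185 mg/kg of streptozotocin, which destroys pancreatic beta cells, into the peritoneum and then ate the plain AIN93G diet. The other diabetic groups received the same injection and ate AIN93G with 0.1% or 0.5% phloridzin, a plant compound that blocks sodium-glucose cotransporters. Untreated mice ate plain AIN93G and got no injection, so streptozotocin and its injection cannot be told apart. The diets began 7 days after the injection and lasted 14 days, and the injected mice entered them with a blood glucose of 330 to 590 mg/dL. Growth hormone, glucose at the end of the diets and cage were not analysed here.

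Signals were scaled by the authors to a trimmed mean of 100 on each array, and the array medians lay between 11.2 and 17.1. A group mean at or below 17.1 is treated as not above background, and then both signals are given without a fold. Folds and differences are on the scale of log2 of the signal plus 16, which understates changes of low genes. The median 95% interval of a difference over all genes was ± 0.30 log2 units, and the number of arrays limits the precision. Replicate 4 of the 0.1% phloridzin group stood apart: its bioDn spike-in control had a signal of 9793, against 1816 to 3210 on the other 19 arrays. Its 9 hepatocyte markers summed to 182059, against 66443 to 108757 on the others. The counts of members called with 0.1% phloridzin are also given without this array, while the means, folds and correlations include it. In all 4 groups 9 of 9 hepatocyte markers with a probe set lay above background. In bulk liver RNA, fewer cells of a type and less RNA per cell cannot be told apart.

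The promoters of the paired cytochromes are shown because they are near-copies of each other. Probe sets read the transcript, so the likeness of promoters does not show what a probe set can separate. Each promoter is the stretch of 250 bases before the transcription start in the RefSeq promoter table (build GRCm38.p6), which held 8 of the 9 genes. Cyp2b9 (chr7:26173159-26173408, + strand) and Cyp2b13 (chr7:26061245-26061494, + strand) had 248 of 250 bases in common (99.2%). They differed by T48C and C104T, with the Cyp2b9 base first and positions counted from the 5′ end. Capitals mark these bases.
Cyp2b9: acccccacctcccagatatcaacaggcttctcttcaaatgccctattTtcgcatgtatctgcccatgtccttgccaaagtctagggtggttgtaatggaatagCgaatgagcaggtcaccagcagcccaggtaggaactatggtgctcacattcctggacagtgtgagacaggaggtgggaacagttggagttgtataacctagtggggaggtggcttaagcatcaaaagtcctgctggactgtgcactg
Cyp2b13: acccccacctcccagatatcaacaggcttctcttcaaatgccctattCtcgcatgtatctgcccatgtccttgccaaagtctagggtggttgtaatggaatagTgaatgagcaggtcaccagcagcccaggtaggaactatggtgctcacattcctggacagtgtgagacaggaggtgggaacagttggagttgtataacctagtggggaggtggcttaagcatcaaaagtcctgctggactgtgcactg

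Cyp3a44 (chr5:145805875-145806124, − strand) and Cyp3a41a (chr5:145720137-145720386, − strand) had 236 of 250 bases in common (94.4%). Both hold ATCAAT, the core of the motif of the liver factors HNF6 and CUX2, which is in capitals.
Cyp3a44: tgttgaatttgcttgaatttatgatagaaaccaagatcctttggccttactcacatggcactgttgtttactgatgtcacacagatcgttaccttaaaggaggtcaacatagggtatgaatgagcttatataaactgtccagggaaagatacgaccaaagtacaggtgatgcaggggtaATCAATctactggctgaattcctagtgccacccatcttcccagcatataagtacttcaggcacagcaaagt
Cyp3a41a: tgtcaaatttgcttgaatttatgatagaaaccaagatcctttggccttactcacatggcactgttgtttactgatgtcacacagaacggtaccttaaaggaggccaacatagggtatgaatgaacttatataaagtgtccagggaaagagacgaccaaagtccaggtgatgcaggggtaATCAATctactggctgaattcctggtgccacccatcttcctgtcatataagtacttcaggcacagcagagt

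Searched on both strands, ATCAAT was present in 3 of the 8 promoters (Cyp3a44, Cyp3a41a and Sult3a1), and in 6.97% of 27025 promoters of the table. The core shared by STAT5 and BCL6, TTCNNNGAA, was present in 1 of 8, that of Sult3a1, and in 7.18% of all promoters. The FOXA core TGTTTAC was found in 2 of 8, again Cyp3a44 and Cyp3a41a, and in 3.09% of all. These near-copies hold TGTTTAC and ATCAAT at the same distance from the start, so each of these counts takes 1 shared sequence more than once, as the CAAAG count also does for Cyp2b9 and Cyp2b13. The HNF4A motif CAAAG was found in 7 of 8 and in 48.8% of all, and in Sult3a1 1 of its matches lies inside the TTCNNNGAA match. The CAR and PXR motif AGTTCA was found in 1 of 8, Cyp3a41a, and in 11.9% of all. The D-box TTATGNAA and the glucocorticoid receptor motif ACANNNTGT were each found in 0 of 8, and in 3.23% and 5.91% of all. A match is a description of these letters in this window and not evidence of a bound site.

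Among the members, Cyp17a1 encodes the steroid 17-alpha-hydroxylase, known from gonadal steroid synthesis. Its signal was 186, 1963, 1026, 1305 and 1532 in STZ mice, 339, 1083, 1224, 1355 and 2717 with 0.1% phloridzin, 1808, 379, 546, 453 and 1295 with 0.5% phloridzin, and 28.9, 38.0, 48.5, 43.1 and 68.1 in untreated mice. All 15 diabetic arrays lay above the highest untreated array. The group means of the 4 groups, in the same order, were 1203 ± 664, 1343 ± 863, 896 ± 628 and 45.3 ± 14.6 (SD, n = 5 each). STZ mice were 16.1-fold above untreated mice (log2 4.01).

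Markers of adrenal cortex and Leydig cells were near background, and their part in the Cyp17a1 signal was not tested. Of 8 adrenal cortex and Leydig cell markers with a probe set, 0 had a mean above background in STZ mice, 2 with 0.1% phloridzin, 1 with 0.5% phloridzin and 1 in untreated mice. Their summed signal was 39.6 to 87.3 in STZ mice, 68.6 to 116 and 58.6 to 91.3 with 0.1% and 0.5% phloridzin, and 76.4 to 138 in untreated mice. Cyp11a1, the side-chain cleavage enzyme that starts steroid synthesis, averaged 8.83 in STZ mice and 12.3 in untreated mice.

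Cyp2b9 is a female-biased cytochrome P450 of mouse liver. It had signals of 345, 3465, 1220, 1368 and 1920 in STZ mice, 703, 1668, 1942, 1989 and 2960 with 0.1% phloridzin, 2480, 571, 916, 677 and 2764 with 0.5% phloridzin, and 9.61, 55.8, 59.6, 282 and 123 in untreated mice. The diabetic and untreated arrays did not overlap, although untreated replicate 4, at 282, came close to STZ replicate 1. The SD among untreated mice was 1.31 log2 units. Means were 1664 ± 1155 in STZ mice, 1853 ± 808 and 1482 ± 1053 with 0.1% and 0.5% phloridzin, and 106 ± 106 in untreated mice (SD, n = 5 each). The STZ mean was 14.9-fold above the untreated mean (log2 3.89).

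Cyp2b13, the neighbour with nearly the same promoter, was dimmer. Signals were 22.7, 315, 58.2, 87.4 and 54.0 in STZ mice, 31.2, 107, 122, 108 and 141 with 0.1% phloridzin, 86.2, 30.1, 39.6, 67.4 and 223 with 0.5% phloridzin, and 8.12, 14.4, 21.3, 50.02 and 17.8 in untreated mice. The ranges overlapped, with 11 of 15 diabetic arrays above the highest untreated one. The difference between STZ and untreated mice was 2.57-fold (log2 1.36). The STZ mean of 108 ± 118 (SD) had its highest array in replicate 2, and the difference was 0.91 log2 units without that array.

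Cyp3a44 is a female-biased member of the family that oxidises steroids and many drugs. Its signals were 104, 388, 276, 127 and 314 in STZ mice, 115, 128, 411, 306 and 162 with 0.1% phloridzin, 236, 224, 188, 130 and 241 with 0.5% phloridzin, and 43.9, 16.9, 66.4, 52.2 and 30.8 in untreated mice. All 15 diabetic arrays exceeded all untreated arrays, and STZ mice were 4.19-fold higher (log2 2.07). The probe set shared by Cyp3a41a and Cyp3a41b had signals of 56.2, 124, 72.6, 47.2 and 84.5 in STZ mice, 59.7, 55.6, 109, 47.1 and 100.9 with 0.1% phloridzin, 54.2, 74.1, 74.9, 127 and 74.3 with 0.5% phloridzin, and 15.3, 27.4, 32.2, 10.4 and 14.1 in untreated mice. Its diabetic and untreated arrays did not overlap, and it averaged 76.8 ± 29.9 in STZ mice, 74.5 ± 28.3 and 80.8 ± 27.1 with 0.1% and 0.5% phloridzin, and 19.9 ± 9.40 in untreated mice (SD, n = 5 each). Which of these near-copies gave that signal, or how much of one cytochrome was read by the probe set of another, was not tested.

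Sult1e1, the estrogen sulfotransferase, which inactivates estrogens by sulfation, was at background in every untreated mouse. It had signals of 5.64, 624, 256, 168 and 513 in STZ mice, 54.0, 57.7, 554, 502 and 789 with 0.1% phloridzin, 574, 53.6, 277, 76.8 and 1073 with 0.5% phloridzin, and 1.24, 8.62, 1.43, 1.21 and 0.56 in untreated mice. STZ replicate 1 lay within the untreated range, and the other 14 diabetic arrays lay above it. The means were 313 ± 253 in STZ mice and 2.61 ± 3.38 in untreated mice. Sult3a1, a sulfotransferase of amines, was the dimmest member. Its signals were 3.55, 17.9, 17.5, 32.3 and 38.7 in STZ mice, 7.32, 6.45, 55.2, 41.7 and 13.0 with 0.1% phloridzin, 58.2, 10, 11.0, 1.02 and 28.8 with 0.5% phloridzin, and 0.123, 8.54, 5.52, 3.77 and 1.82 in untreated mice. It averaged 21.98 ± 13.8 in STZ mice, 24.7 ± 22.3 and 21.8 ± 22.7 with 0.1% and 0.5% phloridzin, and 3.95 ± 3.27 in untreated mice, and 11 of 15 diabetic arrays lay above the highest untreated one.

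Slco1a4 encodes an organic anion transporter that takes up steroid conjugates and bile acids. Its signals were 320, 1260, 1314, 1266 and 1764 in STZ mice, 460, 907, 1436, 1135 and 1683 with 0.1% phloridzin, 1728, 456, 1181, 580 and 1904 with 0.5% phloridzin, and 45.6, 80.4, 80.5, 170 and 121 in untreated mice. No diabetic array overlapped the untreated ones, and STZ mice were 9.77-fold higher (log2 3.29). The group means of 1185 ± 527 in STZ mice, 1124 ± 474 with 0.1% phloridzin and 1170 ± 654 with 0.5% phloridzin (SD, n = 5 each) were close to each other, against 99.6 ± 47.7 in untreated mice.

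Fmo2, a flavin-containing monooxygenase best known from lung, had signals of 398, 596, 880, 452 and 1260 in STZ mice, 271, 176, 1297, 1039 and 1133 with 0.1% phloridzin, 930, 202, 826, 338 and 1489 with 0.5% phloridzin, and 80.1, 79.2, 107, 107 and 119 in untreated mice. Diabetic and untreated arrays again did not overlap, and STZ mice were 5.91-fold higher (log2 2.56). Of the 4 other Fmo2 probe sets, 3 were higher in STZ mice by 1.53 to 2.12 log2 units, and the last was at background in both groups, with means of 8.43 in STZ mice and 4.01 in untreated mice. Of 6 lung epithelium markers, the mean signals of Sftpc, Sftpb, Scgb1a1 and Ager were at or below background in all 4 groups. The summed lung markers were 57.3 to 118 in STZ mice, 63.8 to 114 and 57.5 to 121 with 0.1% and 0.5% phloridzin, and 52.6 to 72.9 in untreated mice. Of these, Sftpa1 averaged 28.4 in STZ mice and 9.07 in untreated mice and Sftpd 25.8 in STZ mice and 14.97 in untreated mice, and their part in the Fmo2 result was not tested.

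**Figure D1:**
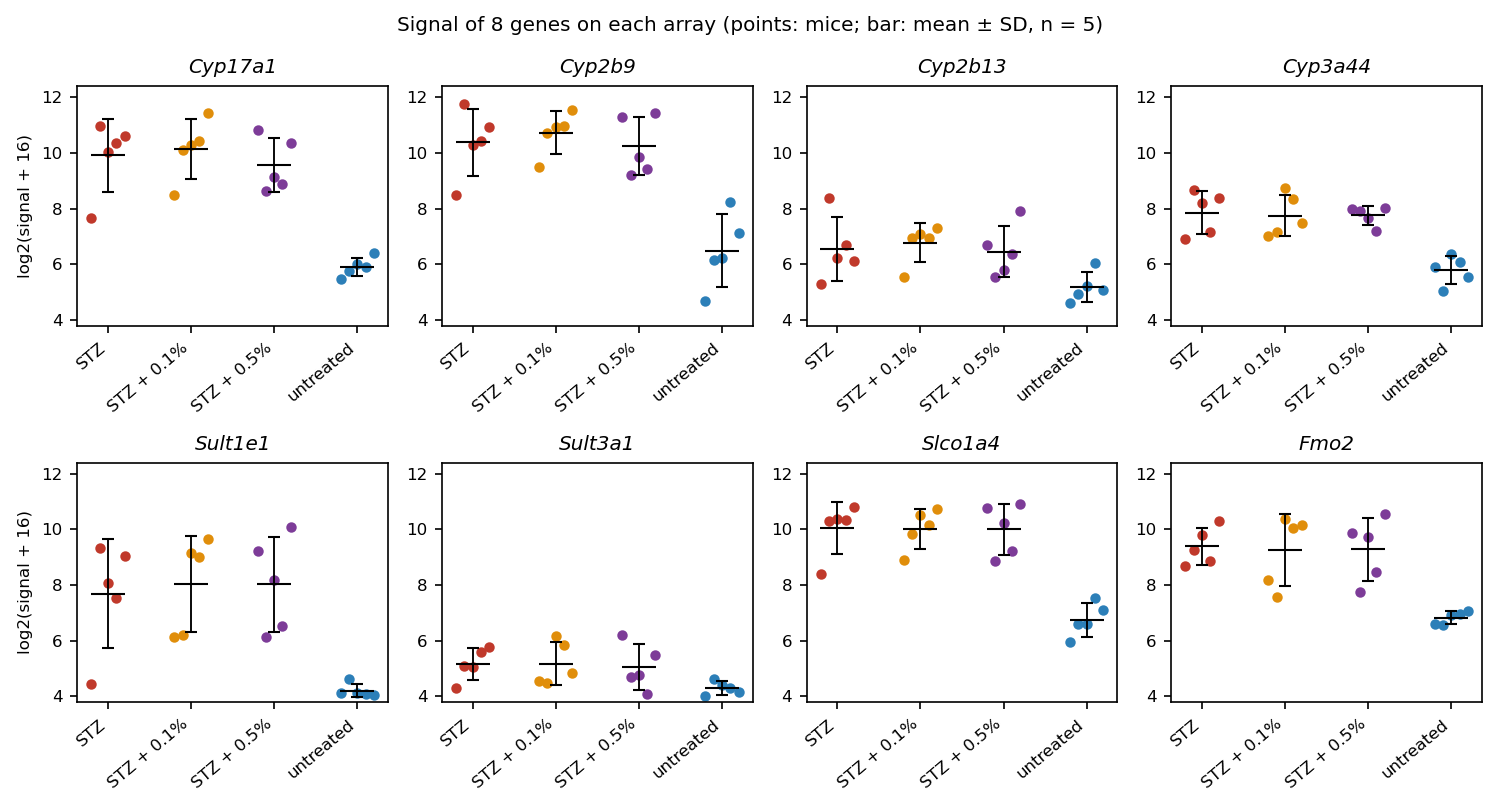
Log2 of the signal plus 16 (vertical axes, one scale for all panels) of 8 genes, with 1 point per mouse and bars for the mean ± SD (n = 5 per group). The 15 diabetic points lie above the 5 untreated points for Cyp17a1, Cyp2b9, Cyp3a44, Slco1a4 and Fmo2.

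For the 8 genes together, the median difference of STZ from untreated mice was 2.93 log2 units, while that of all genes was −0.05. Sult1e1 and Sult3a1 enter this median with untreated signals at background. The groups did not overlap for 5 of 8 genes, against 6.12% of all genes being higher without overlap. Nothing is read from this count, since the same difference chose the genes. Of 7 stellate cell markers, all above background, 3 were called lower in STZ than in untreated mice (log2 differences of −1.35 for Col3a1, −1.11 for Pdgfrb and −0.61 for Reln, against 6.93% of all genes called lower) and 0 higher, with a median of −0.16. The other 4 were not called, and Lrat, the enzyme that esterifies vitamin A for storage, was at 0.19. The summed stellate markers, of which Reln and Col3a1 were the brightest, were 896 to 1430 in STZ mice, 862 to 1490 and 929 to 1311 with 0.1% and 0.5% phloridzin, and 1572 to 2432 in untreated mice. Their part in the result was not tested. The sums of macrophage markers, 2421 to 3398 in STZ mice and 2355 to 2771 in untreated mice, overlapped between these groups. So did those of endothelial markers, 1151 to 1735 in STZ mice and 1500 to 1557 in untreated mice. Of 7 macrophage markers 1 was called higher in STZ mice, Cd5l (log2 0.52), and 0 lower. Of 7 endothelial markers 1 was called higher, Lyve1 (log2 1.19), and 0 lower, against 6.9% of all genes called higher. The part of these 2 cell types was not tested either.

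Phloridzin at 0.1% was compared with STZ alone to ask whether the diet changed these genes in diabetic mice. No member was called (0 of 8, limma adjusted p from 0.989), against 0% of all genes, and 0 of 8 had an unadjusted p under 0.05, against 5.28% of all genes. Of the 8 genes, 5 had a higher mean than in STZ mice and 3 a lower one, with a median difference of 0.12 log2 units. Cyp17a1 was at 0.22 log2 units (95% interval −0.94 to 1.37) and Cyp2b9 at 0.35 (−0.93 to 1.64). Cyp3a44, with the narrowest interval, was at −0.11 (−0.84 to 0.63), and Sult1e1, with the widest, at 0.35 (−1.47 to 2.16). Cyp2b13 was at 0.24 (−0.77 to 1.24), Sult3a1 at 0.02 (−0.74 to 0.78), Slco1a4 at −0.01 (−0.96 to 0.93) and Fmo2 at −0.13 (−1.21 to 0.96). The STZ arrays of this comparison also served to choose the genes.

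Phloridzin at 0.5% gave no called member against STZ either (0 of 8, with 0% of all genes called). At an unadjusted p under 0.05 the counts were 0 of 8, against 4.83% of all genes. Here 1 gene had a higher mean than in STZ mice and 7 a lower one, with a median of −0.11 log2 units. Cyp17a1 was at −0.35 log2 units (95% interval −1.51 to 0.80), Cyp2b9 at −0.13 (−1.42 to 1.15) and Slco1a4 at −0.04 (−0.99 to 0.90). Fmo2 was at −0.11 (−1.20 to 0.98), Sult3a1 at −0.11 (−0.87 to 0.65) and Cyp2b13 at −0.08 (−1.09 to 0.93). Sult1e1, the 1 gene with a higher mean, was at 0.35 (−1.47 to 2.16). The narrowest interval, that of Cyp3a44, reached from 0.56 to 1.55 times the STZ level, so the missing calls do not show that phloridzin left the genes as they were. Intervals of all comparisons rest on 1 spread shared by the 4 groups. Untreated mice varied less for most of the 8 genes, with a median SD of 0.423 log2 units against 1.05 in STZ mice. The intervals among injected mice may therefore be too narrow.

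The means of the higher and the lower dose share no array with the comparison that chose the genes. The spread behind their intervals and p-values does include those arrays. In 0.5% against 0.1% phloridzin, 0 of 8 members were called, with 0% of all genes called and 6.48% at an unadjusted p under 0.05. Cyp17a1 averaged 896 ± 628 with 0.5% and 1343 ± 863 with 0.1% (SD, n = 5 each), a difference of −0.57 log2 units (95% interval −1.73 to 0.58, limma adjusted p = 0.891). Cyp2b9 differed by −0.49 (−1.77 to 0.80) and Sult1e1 by −0.0026 (−1.82 to 1.81). For 0 of 8 genes did the arrays of both doses lie apart, against 0.579% of all genes higher and 0.224% lower without overlap.

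**Figure D2:**
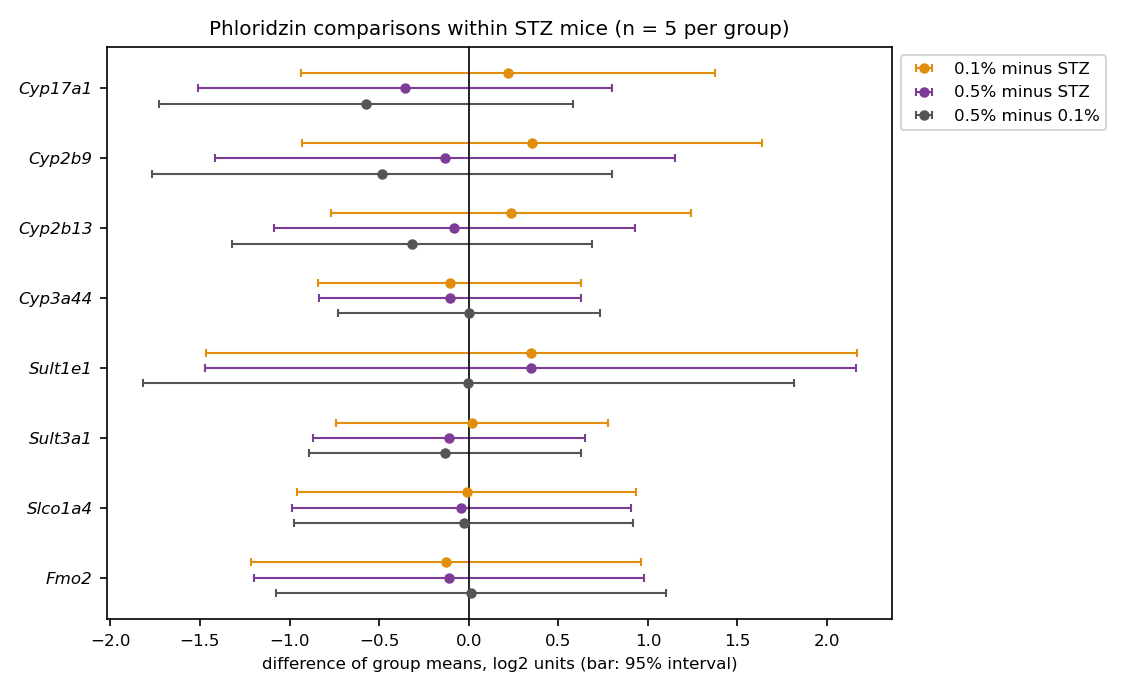
Difference of group means in log2 units (horizontal axis) with 95% intervals from limma, for 8 genes and 3 comparisons within streptozotocin-injected mice (n = 5 per group). All 24 intervals include 0, and Sult1e1 has the widest.

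Mice on phloridzin still differed from untreated mice. The untreated arrays also served to choose the genes, so the counts and p-values of these comparisons repeat in part what chose them. With 0.1% phloridzin, 7 of 8 members were called higher, against 7.77% of all genes, and 6 of 8 did not overlap, against 6.03%. Cyp2b9 was 19.0-fold higher (log2 4.25 ± 0.62, SE, limma adjusted p = 0.000129) and Cyp17a1 18.8-fold higher (4.23 ± 0.55, adjusted p = 4.87e-05). Slco1a4 was 9.68-fold, Fmo2 5.42-fold and Cyp3a44 3.89-fold higher, and Sult1e1 had 391 ± 325 against 2.61 ± 3.38 in untreated mice (adjusted p = 0.00548). Sult3a1, with 24.7 ± 22.3 against 3.95 ± 3.27 in untreated mice, was not called (adjusted p = 0.105). Cyp2b13 was 3.03-fold higher (adjusted p = 0.0271), a call that was lost when untreated replicate 1, 2 or 5 or 0.1% replicate 3, 4 or 5 was left out, with adjusted p up to 0.0717. Without replicate 4, whose spike-ins stood apart, 6 of 8 were called, and 0 of 8 against STZ.

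With 0.5% phloridzin, 6 of 8 were called higher than in untreated mice, against 6.54% of all genes, and 6 of 8 did not overlap, against 5.42%. Cyp2b9 was 13.6-fold (adjusted p = 0.000558), Cyp17a1 12.6-fold (adjusted p = 0.000261), Slco1a4 9.49-fold, Fmo2 5.48-fold and Cyp3a44 3.90-fold higher. Sult1e1 had 411 ± 425 against 2.61 ± 3.38 in untreated mice (adjusted p = 0.0068). Cyp2b13 was 2.44-fold higher and not called (adjusted p = 0.0846), and it was called without STZ replicate 2 (0.0412) or 0.5% replicate 2 (0.0426). Sult3a1 was not called (adjusted p = 0.192). The untreated arrays are those used to choose the genes, so these counts and p-values repeat in part what chose them.

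The mice of a diabetic group differed from each other more for these genes than for most. The SD within a group had a median over the 8 genes of 1.05 log2 units in STZ mice, 0.764 and 0.949 with 0.1% and 0.5% phloridzin, and 0.423 in untreated mice. Over all genes the medians were 0.212, 0.231, 0.219 and 0.178 in the same groups. Sult1e1 had the largest pooled SD within the diabetic groups, at 1.79 log2 units, followed by Cyp17a1 at 1.12, Fmo2 at 1.06 and Cyp2b9 at 1.02. Cyp3a44 had the smallest, at 0.651, and the median of all genes was 0.235.

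The same mice were low or high for most of the genes. STZ replicate 1 was the lowest of its group for 8 of 8 genes, and with 0.1% phloridzin replicates 1 and 2 were the lowest pair for 8 of 8. With 0.5% phloridzin, replicates 2 and 4 were each among the lowest pair for 7 of 8 genes, and replicate 5 was the highest for 6. The mean of the 8 genes was 6.77, 9.22, 8.50, 8.37 and 8.99 log2 units in STZ mice, 7.29, 7.88, 9.15, 8.97 and 9.14 with 0.1% phloridzin, 9.11, 7.34, 8.17, 7.52 and 9.34 with 0.5% phloridzin, and 5.16, 5.54, 5.74, 6.14 and 5.82 in untreated mice. Every group of diabetic mice thus held both low and high animals, and the lowest diabetic mouse lay above the highest untreated one.

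**Figure D3:**
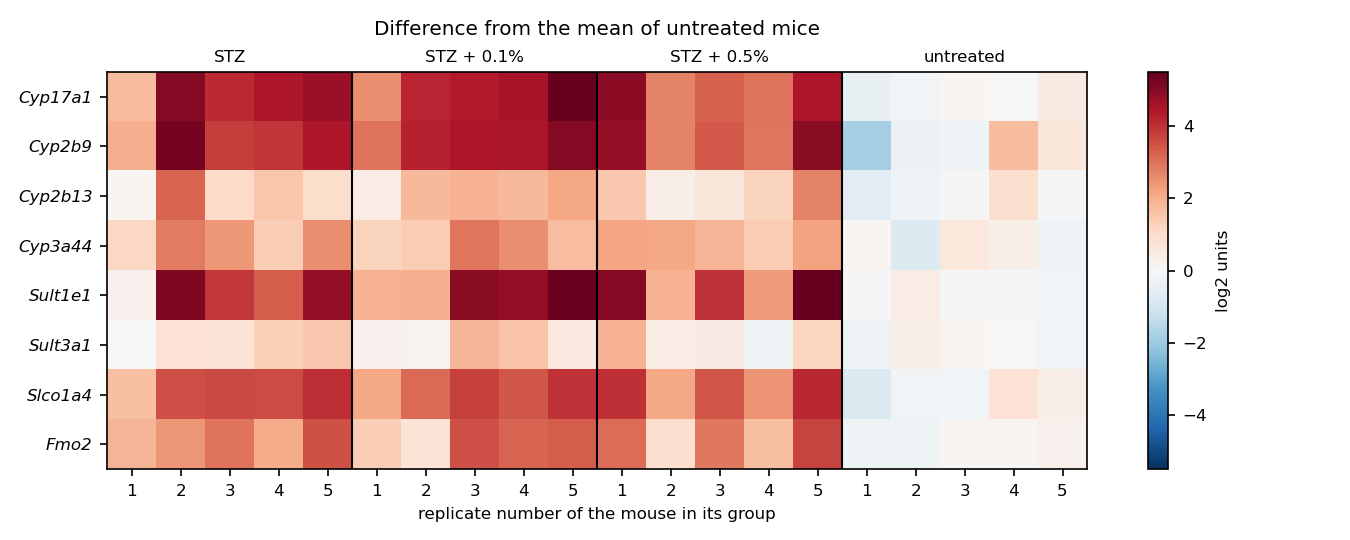
Difference of each mouse from the mean of untreated mice in log2 units (colour, red for higher), with 8 genes in rows and 20 mice in columns by group and replicate number. STZ replicate 1, 0.1% phloridzin replicates 1 and 2, and 0.5% phloridzin replicates 2 and 4 are paler than the other mice of their group for most genes.

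Across the 15 diabetic arrays, after each group was centred on its mean, the 28 pairs of genes had a median Pearson r of 0.714. The values ran from 0.390 for Cyp2b13 with Sult3a1 to 0.963 for Cyp17a1 with Cyp2b9, and 26 pairs were above 0.5. Sult1e1 and Slco1a4 were at 0.933, and Cyp2b9 and Cyp2b13 at 0.871. These points share their library, array and scaling, so the correlations are descriptions of these mice. Array quality moved less with the mean of the 8 genes: r was −0.150 for the array median, 0.155 for the Gapdh 3′ to 5′ ratio and 0.520 for the beta-actin 3′ to 5′ ratio (n = 15), and the part of the last in the pattern was not tested.

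By the same measure, the non-member genes most like the mean of the 8 were D130020L05Rik (r = 0.962), Prxl2c (0.962), Mgst3 (0.960), Ildr2 (0.957) and Cyp2c39 (0.954). For Cyp17a1 alone they were Gcdh (0.953), Rdh16f2 (0.951), Atad3a (0.948), Idh2 (0.939) and Idh3b (0.936). The fatty acid hydroxylase Cyp4a14 followed the mean of the 8 genes with r = 0.910 over the same 15 arrays.

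Taken as a mean, genes with the opposite sex bias were low in the diabetic mice where the members were high. The male-biased list held 24 genes, of which 18 were measured, and its mean over a mouse had r = −0.935 with the mean of the 8 members in the 15 diabetic arrays (Spearman −0.882, and r = −0.896 without the 2 arrays farthest from the median). The male-biased mean was 10.63, 8.98, 9.14, 8.97 and 8.52 log2 units in STZ mice, 10.24, 9.62, 8.82, 9.08 and 7.998 with 0.1% phloridzin, 8.28, 10.46, 9.51, 9.90 and 8.56 with 0.5% phloridzin, and 11.40, 11.25, 11.13, 10.95 and 11.15 in untreated mice. STZ replicate 1, the diabetic mouse with the lowest members, had the highest male-biased mean of the diabetic mice. In STZ against untreated mice, 14 of the 18 were called lower and 0 higher, against 6.93% of all genes called lower, with a median of −1.68 log2 units. This list and those of other female-biased genes, regulators and relatives were chosen with earlier results of these data known. Their counts in this comparison, and the correlations of their means with the members, are therefore descriptions and not independent support. With either phloridzin dose against STZ, 0 of 18 were called.

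**Figure D4:**
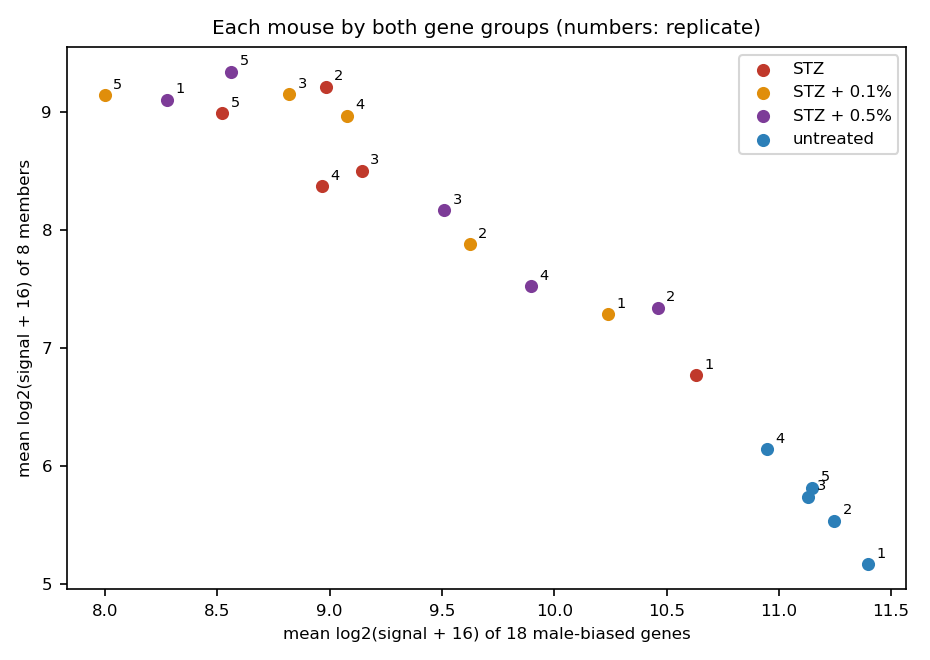
Mean log2 signal of the 8 genes (vertical axis) against that of 18 male-biased genes (horizontal axis), with 1 point per mouse, coloured by group and numbered by replicate. The 5 untreated mice lie at the lower right and STZ replicate 1, at 6.77 and 10.63, lies nearest to them.

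Of 20 other female-biased liver genes, 12 were measured. In STZ against untreated mice 6 were called higher, against 6.9% of all genes, and 0 lower, with a median of 0.81 log2 units. Cd36, a fatty acid carrier, was 4.51-fold higher (log2 2.17 ± 0.21, SE, limma adjusted p = 1.61e-06), the acyl-CoA thioesterase Acot3 7.77-fold and the lipoprotein receptor Vldlr 2.83-fold higher. Without untreated replicate 1 the count was 3. With either phloridzin dose against STZ, 0 of 12 were called. Over the 15 diabetic arrays the mean of these 12 had r = 0.903 with that of the 8 members (Spearman 0.957).

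Parts of the growth hormone pathway and the regulators of sex bias were also measured, 19 of 22 genes. In STZ against untreated mice 3 of the 19 were called higher and 5 lower, against 6.9% and 6.93% of all genes, with a median of −0.10 log2 units. The growth hormone receptor Ghr was 1.53-fold lower (log2 −0.61, adjusted p = 0.0072), the signal carrier Stat5b 1.38-fold lower (−0.47, adjusted p = 0.0112) and its relative Stat5a 1.81-fold lower (adjusted p = 0.02). Bcl6, a repressor of female-biased genes in male mouse liver, averaged 279 ± 87.2 in STZ mice and 688 ± 104 in untreated mice and was 2.44-fold lower (−1.29 ± 0.25, SE, adjusted p = 0.00184). The pioneer factor Foxa1 was 1.75-fold lower, and Trim24, a chromatin-binding cofactor, was 4.01-fold higher (log2 2.00, adjusted p = 2.93e-05). The xenobiotic receptors Nr1i3 and Nr1i2 were 1.80-fold and 1.59-fold higher.

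Other genes of this list did not pass the test. Igf1, the hormone gene that growth hormone drives in liver, averaged 4753 ± 612 in STZ mice and 4787 ± 342 in untreated mice (−0.02 log2 units, adjusted p = 0.929). The feedback inhibitor Socs2 was at −0.10 (adjusted p = 0.864). The female-biased factor Cux2 was at 0.36 (adjusted p = 0.403), and Onecut1, the gene of HNF6, at −0.91 (adjusted p = 0.0875). Neither phloridzin dose gave a call against STZ among the 19. Bcl6 with 0.5% phloridzin had an unadjusted p of 0.000488 (−1.03 log2 units against STZ, adjusted p = 0.863).

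Among close relatives of the members, 14 of 25 were measured, and in STZ against untreated mice 6 of the 14 were called higher and 1 lower, against 6.9% and 6.93% of all genes, with a median of 0.48 log2 units. The phenol sulfotransferase Sult1a1 was 2.27-fold higher (log2 1.18, adjusted p = 0.000317), Sult1d1 2.81-fold, Fmo4 1.72-fold and Fmo1 1.58-fold higher. The bile acid carrier Slco1b2 was 1.23-fold lower (adjusted p = 0.0315). Without STZ replicate 2 the list had 4 calls. With either phloridzin dose against STZ, 0 of 14 were called.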

How the data were processed

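Liver RNA of 20 mice was hybridised to Affymetrix mouse arrays. The intensity values deposited by the authors were linear signals per probe set. A mean of 100 on every array, once the extreme 2% at each end were trimmed, shows that they had been scaled. The sources used here do not give the software. Among 45101 probe sets, 34945 named 1 gene, and 932 with several genes, 9160 with none and 64 controls were left out. Per gene the probe set with the highest mean was kept, if at or above the 40th percentile (a signal of 9.00).

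Values were log2 of the signal plus 16. A model of 4 group means was fitted to 12952 genes in R 4.3.3 by limma 3.58.1 (functions lmFit, eBayes), two-sided, with 16 residual and 4.54 prior degrees of freedom. The code was run on simulated data whose genes were independent and had 1 spread in all groups, unlike these members. Genes were called at a Benjamini-Hochberg adjusted p under 0.05 over all genes. The mice were separate animals, 6 to a group with 5 arrayed, and were kept 3 to a cage. The labels do not give the cages, so mice that shared a cage were treated as independent. The members and gene lists were chosen with earlier results of these data known. Beside members and like genes, the text names up to 4 genes per list by smallest p, a preset group of regulators and the genes behind a count of 5 or fewer. Cyp4a14 was named with its values known. Alternatives were quantile normalization, median centring, other filters, the mean of probe sets, a pseudocount of 1, only the groups compared, array weights, a block by replicate number and leaving out single arrays.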

Additional observations from a re-analysis of the deposited data

Results flagged for a closer look

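Within groups of 5, an array was flagged when its gap to the nearest other exceeded 0.71 of the whole range. Gap and range were taken on the same log scale as the folds and differences, while the values given below are signals. Of 32 sets of values (8 genes in 4 groups) 4 were flagged, and chance flags about 1 in 20. Cyp17a1 had a signal of 186 in STZ replicate 1, against 1026 to 1963 in the other STZ mice. In the same mouse Slco1a4 was at 320, against 1260 to 1764 in the others. Cyp2b13 was at 31.2 in 0.1% phloridzin replicate 1, against 107 to 141 in the others of its group. Sult1e1 was at 8.62 in untreated replicate 2, against 0.56 to 1.43, all at background.

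The probe set annotated to both Cyp3a41b and Cyp3a41a was outside the comparisons. Its lowest diabetic array, at 47.1, lay above the untreated range of 10.4 to 32.2.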

How the results depend on the processing

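Leaving out 1 array at a time, 0 of 8 members were called in each of the 3 comparisons among injected mice, and 6 to 7 of 8 were called for either phloridzin dose against untreated mice. The median difference of STZ from untreated mice was 2.72 to 3.22 log2 units. Signs of the uncalled differences turned with the array left out. For 0.1% phloridzin against STZ the differences ran, in log2 units, over Cyp17a1 −0.35 to 0.63, Cyp2b13 −0.079 to 0.70, Cyp2b9 −0.12 to 0.70, Cyp3a44 −0.35 to 0.094, Fmo2 −0.40 to 0.29, Slco1a4 −0.42 to 0.27, Sult1e1 −0.46 to 0.82 and Sult3a1 −0.23 to 0.19. For 0.5% phloridzin against STZ the differences ran, in log2 units, over Cyp2b13 −0.44 to 0.38, Cyp2b9 −0.60 to 0.21, Cyp3a44 −0.34 to 0.10, Fmo2 −0.43 to 0.27, Slco1a4 −0.45 to 0.24, Sult1e1 −0.47 to 0.82 and Sult3a1 −0.40 to 0.13. For 0.5% against 0.1% phloridzin the differences ran, in log2 units, over Cyp3a44 −0.18 to 0.25, Fmo2 −0.41 to 0.39, Slco1a4 −0.31 to 0.25, Sult1e1 −0.52 to 0.47 and Sult3a1 −0.42 to 0.11.

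The count of other female-biased genes called in STZ against untreated mice ran from 3 to 7, lowest without untreated replicate 1, and that of relatives of the members from 4 to 8, lowest without STZ replicate 2. The cause was not tested.

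Among the other settings, uncalled differences near 0 changed sign. In 0.5% against 0.1% phloridzin, Cyp3a44 was at −0.0049 with quantile normalization, −0.017 with median centring and −0.086 with array weights, Fmo2 at −0.0038 with median centring and −0.14 with the mean of probe sets, Sult1e1 at 0.0068 with a pseudocount of 1 and 0.059 with array weights, and Slco1a4 at 0.025 with array weights. In 0.1% phloridzin against STZ, Sult3a1 was at −0.022 with median centring and −0.0011 with a pseudocount of 1, and Fmo2 at 0.043 with the mean of probe sets. In STZ against untreated mice, the mean of probe sets gave 1.67 for Fmo2. The differences of Sult1e1 and Sult3a1 there depend on the pseudocount, since their untreated means of 2.61 and 3.95 were at background, and are not given. Cyp2b13 was called in 0.5% phloridzin against untreated mice with array weights (adjusted p = 0.0368).

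All genes called in STZ against untreated mice numbered 1791, against 2862 with array weights and 1175 without STZ replicate 5. For 0.5% phloridzin against untreated mice they numbered 1650, against 2616 with array weights and 940 to 1089 without untreated replicate 1 or 0.5% replicate 1 or 5. Median centring split the STZ calls into 1139 higher and 511 lower, against 894 and 897. With the replicate number as a block, the members called were 0 of 8 in the 3 comparisons among injected mice, 7 for 0.1% and 6 for 0.5% phloridzin against untreated mice. Of all 12952 genes, the block gave 0 calls among injected mice. It gave 1112 called higher for 0.1% and 955 for 0.5% phloridzin against untreated mice. Same-numbered mice were different animals and correlated at −0.40 to 0.50, with 13 of 30 pairs above 0.1. Their median was 0.075, against −0.011 for mice of unlike numbers, and the block was not used.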
